A study of Homo sapiens with 16 samples.

Results

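The mitosis genes are 55 genes whose products carry out or time cell division, from the kinases that start mitosis to the proteins that cut the daughter cells apart. They were chosen by symbol, with earlier results of these data known. All 55 were found among the 11963 genes that have a probe set of their own on the Affymetrix U133A array, and the probe set with the highest mean signal over the 12 arrays stood for each gene. All 55 also lay above the limit on low signal that left 7178 genes to test. Signals are not comparable between probe sets, so levels are compared between groups of arrays and never between genes.

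Messenger RNA was measured in OVCAR3, an established human ovarian carcinoma line, after treatment with 1,25-dihydroxyvitamin D3 (1,25(OH)2D3), the active form of vitamin D, which acts through the nuclear receptor VDR. The 4 groups were vehicle (ethanol, the control at 0 h) and 8, 24 and 72 h with hormone, at a dose that the labels give as 0.1 pM and that the arrays cannot check. Every culture received an equal amount of ethanol for an equal time, and additions were staggered so that all groups were harvested together. Each group had 3 biological replicates on U133A, from 3 independent experiments, and 1 sample on the older U95 array. A single cell line was used, so the p-values measure the spread between cultures of that line.

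Each array had been scaled to a trimmed mean signal of 500.2, and median signals on U133A lay between 168 and 196. CYP24A1, the enzyme that degrades 1,25(OH)2D3, was 50.0-fold higher than in vehicle at 8 h (adjusted p = 1.7e-07), which checks the labels of treatment. Of 12 markers of epithelial ovarian carcinoma, 12 were above the limit on low signal, including PAX8 and WT1. Only 3 of 10 fibroblast markers, 1 of 10 leukocyte markers and 2 of 8 endothelial markers were above it, and the summed signal of each of these 3 lists overlapped between vehicle and every treated group. For ACTB, the 3' probe set over the 5' one, a sign of RNA quality, gave a log2 ratio of 0.17 ± 0.09 in vehicle, 0.19 ± 0.02 at 24 h and 0.09 ± 0.07 at 72 h (mean ± SD, n = 3), and its part in the results was not tested.

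Transcripts of mitosis genes accumulate late in the cell cycle, shortly before the cell divides, and fall when cells rest. Their promoters often carry the cell cycle homology region, an element with the letters TTTGAA, and CCAAT boxes, which bind the factor NF-Y. The first is bound by the MuvB complex, which represses these genes in resting cells as part of DREAM and activates them in dividing cells together with MYBL2 and FOXM1. In RNA from whole cultures, fewer dividing cells and less of a transcript in each dividing cell cannot be told apart.

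Both elements were searched in promoters of the RefSeq table on build GRCh38.p14, each from 250 bases before to 50 bases after a gene start, as TTTGAA and CCAAT on both strands. The table held 62 promoters for 47 of the 55 genes. TTTGAA was found in 39 of the 62 (62.9%), against 15.2% of all 35116 promoters in the table and 10.9% of the 9020 promoters of tested genes. CCAAT was found in 43 (69.4%), against 34.6% and 35.3%. Both were found in 30 promoters (48.4%), against 5.9% and 4.47%. In 1 promoter of the 62 a match of one overlapped a match of the other. For 39 of 48 DNA replication genes, which act earlier in the cell cycle, the table held 49 promoters, with CCAAT in 57.1% and TTTGAA in 2.04% (1 promoter). A match is a run of letters in the window and not evidence that a factor binds there.

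The windows shown are those of the genes that fell in the tests below and have exactly 1 promoter in the table, with CCNB2 and PLK1 added, chosen after their values were seen, as promoters that carry both. Each runs 5' to 3' on the strand of the gene over 140 bases, from 120 before the start to 20 after it, and capitals mark a match on either strand. On the other strand TTTGAA reads TTCAAA, and CCAAT there reads ATTGG.
KIF11 (chr10:92593010-92593149, + strand): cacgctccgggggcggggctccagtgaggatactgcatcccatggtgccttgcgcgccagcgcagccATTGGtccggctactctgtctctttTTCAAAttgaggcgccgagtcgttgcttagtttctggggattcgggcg
CENPA (chr2:26785936-26786075, + strand): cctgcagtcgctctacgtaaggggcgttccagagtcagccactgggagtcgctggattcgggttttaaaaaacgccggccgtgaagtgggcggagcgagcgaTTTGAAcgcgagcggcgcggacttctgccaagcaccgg
DLGAP5 (chr14:55191566-55191705, - strand): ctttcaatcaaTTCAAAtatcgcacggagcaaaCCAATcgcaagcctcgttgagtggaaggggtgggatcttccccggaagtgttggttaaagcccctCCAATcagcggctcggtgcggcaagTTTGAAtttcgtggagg
DEPDC1 (chr1:68497063-68497202, - strand): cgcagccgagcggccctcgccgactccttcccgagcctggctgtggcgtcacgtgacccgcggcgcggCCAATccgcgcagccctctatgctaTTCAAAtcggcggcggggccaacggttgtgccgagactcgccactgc
KIF20A (chr5:138178992-138179131, + strand): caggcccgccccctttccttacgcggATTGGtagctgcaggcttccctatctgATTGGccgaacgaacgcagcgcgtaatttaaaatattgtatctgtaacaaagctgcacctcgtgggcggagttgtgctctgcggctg
CCNB2 (chr15:59105026-59105165, + strand): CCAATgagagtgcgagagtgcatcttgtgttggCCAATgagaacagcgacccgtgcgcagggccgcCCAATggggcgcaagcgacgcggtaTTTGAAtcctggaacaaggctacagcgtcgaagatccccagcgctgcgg
PLK1 (chr16:23678769-23678908, + strand): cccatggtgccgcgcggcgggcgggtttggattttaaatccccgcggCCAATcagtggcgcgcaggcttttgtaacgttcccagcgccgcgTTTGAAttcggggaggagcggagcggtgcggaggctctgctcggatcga
In KIF11, DEPDC1, CCNB2 and PLK1 the first base of TTTGAA or TTCAAA lay 28, 27, 29 and 29 bases before the start, with a CCAAT box further upstream. CENPA had TTTGAA 18 bases before the start and no CCAAT in the 140 bases shown, though its longer searched promoter held CCAAT. DLGAP5 had a TTTGAA from position 4, counting the start as 1, a copy on the other strand 109 bases before the start, and 2 CCAAT boxes. KIF20A had 2 copies of ATTGG and no TTTGAA in the window. None of the 4 promoters of CDC25B, the gene with the largest fall at 24 h among the 55, held TTTGAA, which says only that these letters are not in those windows. Genes with TTTGAA in a promoter (35) had a median log2 change of -0.22 at 24 h and -0.21 at 72 h, and the 12 without it -0.28 and -0.21. In the first set 3 genes fell at 24 h and 2 at 72 h, and in the second 2 and 1, where 1.62% and 2.98% of all tested genes fell. The 8 members with no promoter in the table are in neither set, and RACGAP1, which fell at 72 h, is 1 of them. The difference between the sets was not tested.

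As a group the mitosis genes were slightly lower than in vehicle at every time, and a few fell far enough to pass the test. Of the 55, 44 had a negative log2 change at 8 h, 52 at 24 h and 49 at 72 h, where 51.2%, 53.3% and 52.3% of all tested genes did. The median log2 change of the 55 was -0.09 at 8 h, -0.22 at 24 h and -0.17 at 72 h, beside -0.0040, -0.016 and -0.015 over all tested genes. At 24 h the middle 50% of the 55 lay between -0.31 and -0.16, a small shift. Because the 55 were chosen with earlier results known, counts and medians over them are descriptions and not tests. Log2 changes are of signals with 15.8 added, and a gene passed when its limma p, adjusted over the 7178 genes, was under 0.05.

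**Figure D1:**
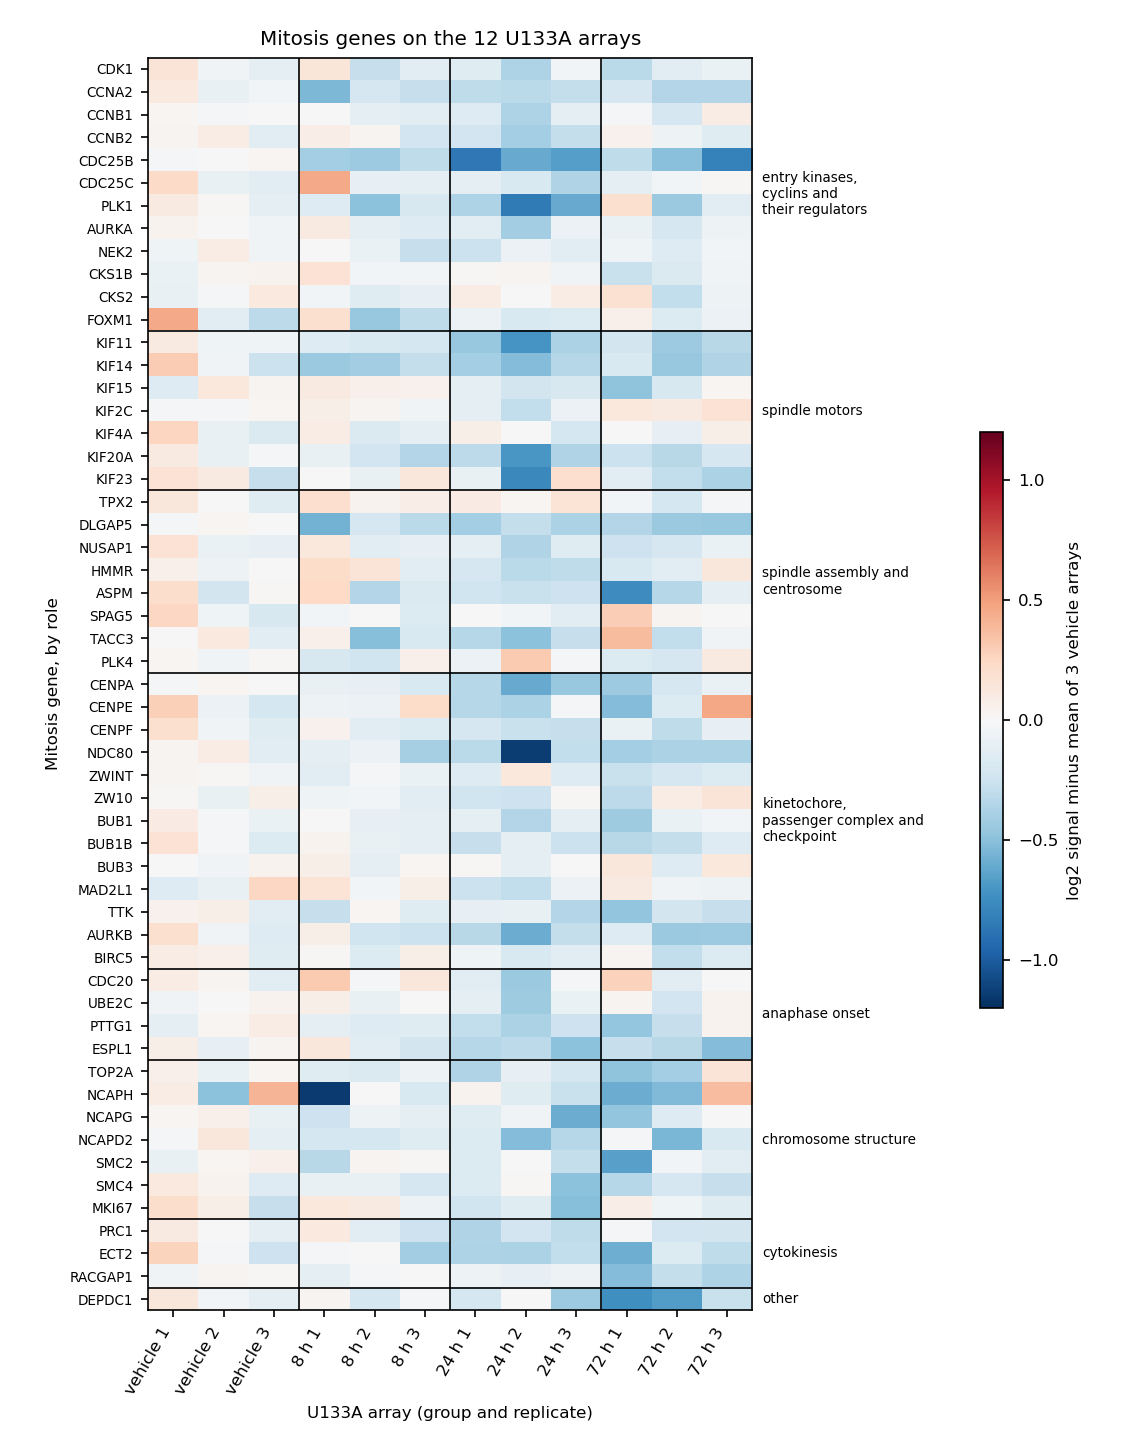
Heat map of the 55 mitosis genes (rows, grouped by role) on the 12 U133A arrays (columns, by group and replicate). Colour is the log2 signal minus the mean of the 3 vehicle arrays. Blue prevails in the 24 h columns, where 52 of 55 genes had a negative mean change, and CDC25B is the gene with the lowest mean there.

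After 24 h, 5 of the 55 fell and 0 rose, where 1.62% of all tested genes fell and 2.47% rose. They were CDC25B, KIF11, CENPA, KIF20A and DLGAP5. After 72 h, 4 fell and 0 rose, where 2.98% of all tested genes fell and 3.86% rose. These were CDC25B, RACGAP1, DLGAP5 and DEPDC1, so CDC25B and DLGAP5 passed at both times. At 8 h, 0 fell and 0 rose, where 0.0557% of all tested genes fell and 0.724% rose. With an unadjusted p under 0.05 the genes that were lower numbered 4 at 8 h, 21 at 24 h and 18 at 72 h, beside 2.66%, 7.17% and 10.3% of all tested genes, and 0 were higher at any of the 3 times (3.72%, 7.26% and 9.81% of all tested genes). The 3 comparisons share the vehicle arrays, so their counts are not independent of each other.

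The groups separated for more genes than passed. At 24 h the 3 arrays lay below all 3 vehicle arrays for 29 of 55 genes, against 11.2% of all tested genes. At 8 h this held for 9 genes (6.95% of all) and at 72 h for 14 (12.7% of all). The reverse, 3 treated arrays above all vehicle arrays, held for 0 genes at 8 and 24 h and for KIF2C alone at 72 h, against 6.52%, 9.35% and 11.7% of all tested genes.

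The shift differed between replicates. Relative to the mean of the vehicle arrays, the median of the 55 was 0.07, -0.01 and -0.08 on vehicle replicates 1, 2 and 3. It was -0.0004, -0.10 and -0.14 on the 8 h arrays, -0.17, -0.29 and -0.25 on the 24 h arrays, and -0.21, -0.21 and -0.08 on the 72 h arrays. The 24 h arrays were therefore all below the vehicle arrays, while 1 of the 72 h arrays, replicate 3, was level with the lowest vehicle array. The 8 h arrays overlapped the vehicle arrays, with 8 h replicate 1 above vehicle replicates 2 and 3. Vehicle replicate 1 was the highest vehicle array for 33 of the 55 genes and replicate 3 the lowest for 31. When each treated array was set against the vehicle array of its number, the median change was -0.26, -0.24 and -0.14 at 24 h, with 51, 47 and 47 genes negative. At 72 h it was -0.33, -0.22 and -0.02, with 43, 50 and 31 genes negative. Leaving out 1 array at a time moved the median at 24 h between -0.26 and -0.18 and at 72 h between -0.22 and -0.13.

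**Figure D2:**
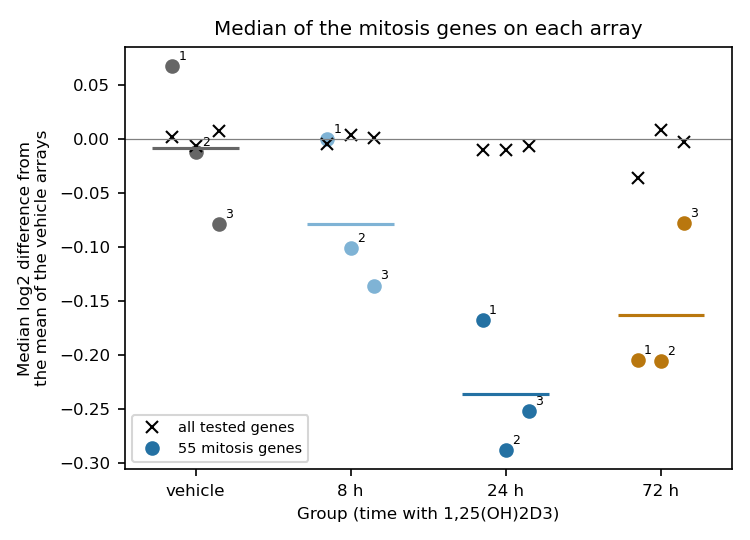
Median log2 difference of the 55 mitosis genes (filled circles, replicate number beside each) and of all 7178 tested genes (crosses) from the mean of the vehicle arrays, by group, with a horizontal line at the mean of each group's 3 circles. The circles of the 24 h arrays lie between -0.29 and -0.17, below every vehicle array, and the crosses lie close to 0.

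Among the kinases, cyclins and their regulators that start mitosis, 11 of 12 were negative at 24 h and 12 of 12 at 72 h, with medians of -0.21 and -0.09, and CDC25B fell at both times. CDC25B is a phosphatase that removes the inhibitory phosphates of CDK1 and so triggers entry into mitosis. Its signals were 1959, 1990 and 2030 in vehicle and 1495, 1465 and 1608 at 8 h. They were 1090, 1309 and 1258 at 24 h and 1613, 1400 and 1133 at 72 h. No treated array overlapped the vehicle arrays at any time, and the 72 h arrays were spread widest. The level was 1.63-fold lower at 24 h (log2 change -0.71, SE 0.12, adjusted p = 0.0018) and 1.45-fold lower at 72 h (-0.54, SE 0.12, adjusted p = 0.010). At 8 h it was -0.39 with an adjusted p of 0.27. CDC25B was the only one of the 55 whose calls at 24 and 72 h held in all 23 alternative analyses.

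PLK1, the kinase that drives centrosome maturation and spindle assembly, had signals of 670, 625 and 569 in vehicle, 554, 437 and 541 at 8 h, 475, 338 and 401 at 24 h, and 709, 452 and 567 at 72 h. The 24 h arrays lay below all vehicle arrays, and 1 of the 72 h arrays lay above them. Its log2 change of -0.61 (SE 0.17) at 24 h just missed the threshold (adjusted p = 0.053), and at 72 h it was -0.13. With a term for replicate number in the fit, PLK1 and CCNB2 passed at 24 h, though no label ties a number to an experiment. CCNB2, a B-type cyclin that binds CDK1, had signals of 3228, 3351 and 2880 in vehicle and 2686, 2365 and 2573 at 24 h, which do not overlap (log2 change -0.31, adjusted p = 0.12). At 72 h its signals of 3253, 3022 and 2838 were again within the vehicle range or close to it (-0.05). CCNA2, cyclin A, was lower by a similar amount at all 3 times (-0.34, -0.31 and -0.30) with adjusted p of 0.28, 0.14 and 0.11, and its other probe set gave -0.39, -0.50 and -0.46. CDK1 itself was at -0.19 at 24 h and -0.17 at 72 h, and CCNB1 at -0.21 and -0.05. The small CDK-binding proteins were near 0 at 24 h, with CKS1B at -0.0012 and CKS2 at 0.06. FOXM1, the activator of these genes, was at -0.14 at 24 h (SE 0.18), with vehicle signals of 1208, 795 and 703 that spread more widely than the difference.

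All 7 spindle motors were negative at 24 h, with a median of -0.22, and 2 of them fell. KIF11, also called Eg5, slides antiparallel microtubules apart so that the spindle becomes bipolar. Its signals were 1436, 1286 and 1284 in vehicle, 1194, 1169 and 1152 at 8 h, 970, 812 and 1023 at 24 h, and 1143, 984 and 1054 at 72 h. Every treated array lay below every vehicle array. KIF11 was 1.43-fold lower at 24 h (log2 change -0.51, SE 0.11, adjusted p = 0.0094), and at 72 h it was -0.33 (adjusted p = 0.080). With a term for replicate number in the fit it passed at 72 h too. Without vehicle replicate 1 the call at 24 h was lost (adjusted p = 0.062), as it was with each array centred on its median (0.058).

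KIF20A, a kinesin of the central spindle needed for cytokinesis, had signals of 1229, 1070 and 1119 in vehicle and 912, 696 and 882 at 24 h. These groups did not overlap, and KIF20A was 1.37-fold lower (log2 change -0.46, SE 0.12, adjusted p = 0.039). That call was lost in 10 of the 23 alternative analyses, among them the 6 that left out any 1 vehicle array, 8 h replicate 2 or 24 h replicate 2 or 3 (adjusted p up to 0.17). KIF14, which acts in cytokinesis too, had -0.43 at 24 h (adjusted p = 0.11) and -0.38 at 8 h (0.42). KIF2C, which takes microtubules apart at kinetochores, is given because its 72 h arrays lay above vehicle. Its signals were 1717, 1717 and 1757 in vehicle, 1599, 1407 and 1651 at 24 h, and 1894, 1859 and 1949 at 72 h, so that it lay below vehicle at 24 h (-0.16, adjusted p = 0.45) and above it at 72 h (0.13, adjusted p = 0.43), passing at neither time. KIF2C was chosen after its values were seen.

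**Figure D3:**
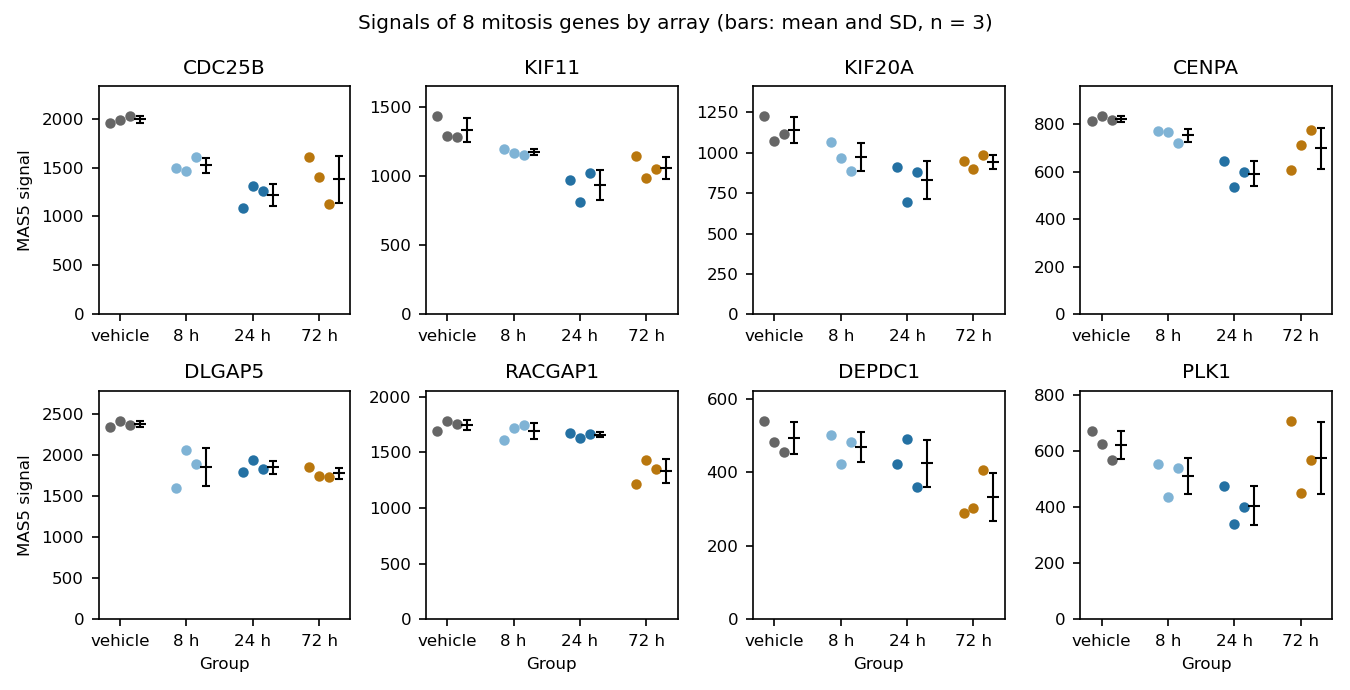
MAS5 signal (linear axis from 0) of 8 mitosis genes by group. Points are the 3 replicate arrays in order of replicate number, and bars are mean and SD. CDC25B is lower in all treated groups, KIF11, KIF20A and CENPA are lowest at 24 h, RACGAP1 and DEPDC1 are lowest at 72 h, and the PLK1 signals at 72 h, 452 to 709, span those in vehicle.

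Of the 8 genes of spindle assembly and the centrosome, 6 were negative at 24 h and 6 at 72 h, with medians of -0.23 and -0.09. DLGAP5, a microtubule-binding protein that stabilises the fibres attached to kinetochores, fell at both times. Its signals were 2339, 2417 and 2367 in vehicle, 1596, 2058 and 1895 at 8 h, 1787, 1941 and 1823 at 24 h, and 1851, 1744 and 1731 at 72 h. All treated arrays lay below the vehicle arrays, and the 8 h arrays spanned the range of the later ones. The log2 change was -0.37 at 8 h (SE 0.10, adjusted p = 0.13), -0.36 at 24 h (adjusted p = 0.0496) and -0.42 at 72 h (adjusted p = 0.014). The call at 24 h was lost in 15 of 23 alternative analyses, among them leaving out any 1 of the vehicle or 24 h arrays, 8 h replicate 3 or 72 h replicate 2 or 3 (adjusted p up to 0.17). The call at 72 h was lost without vehicle replicate 2 or 3 (highest 0.057).

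No other gene of spindle assembly passed. TACC3, a centrosomal protein, had -0.37 at 24 h (adjusted p = 0.33) and 0.02 at 72 h, where replicate 1 with a signal of 921 lay above all vehicle arrays (645 to 765). HMMR, a spindle pole protein, had -0.28 and -0.06. ASPM, which organises spindle poles, had -0.25 at 24 h and -0.40 at 72 h (adjusted p = 0.19), with signals of 863, 1152 and 1354 at 72 h that overlap the vehicle values of 1252 to 1699. NUSAP1 was at -0.21 and -0.17. TPX2, the activator of aurora A, had the highest log2 change of the 55 at 24 h, 0.10, and PLK4, the kinase of centriole duplication, had 0.07. Neither passed, and 2 probe sets of PLK4 differed in sign.

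All 13 genes of the kinetochore, the chromosomal passenger complex and the spindle checkpoint were negative at 24 h and 11 at 72 h, with medians of -0.21 and -0.18. CENPA, the histone H3 variant that marks centromeres, fell at 24 h. Its signals were 815, 836 and 818 in vehicle, 774, 766 and 723 at 8 h, 644, 536 and 598 at 24 h, and 606, 712 and 778 at 72 h. No treated array overlapped the vehicle arrays. CENPA was 1.38-fold lower at 24 h (log2 change -0.47, SE 0.11, adjusted p = 0.027), and it was at -0.24 at 72 h (adjusted p = 0.25). The call was lost with median centring (0.052) and without any 1 vehicle array or 24 h replicate 2 or 3 (highest 0.097). Its probe set is of a class whose probes can match more than 1 transcript.

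NDC80, which couples kinetochores to microtubules, had signals of 741, 769 and 659 in vehicle, 574, 320 and 585 at 24 h and 539, 550 and 551 at 72 h. Both treated groups lay below vehicle, and 24 h replicate 2 stood far below the other 24 h arrays. The log2 change of -0.58 at 24 h had an SE of 0.18 and did not pass (adjusted p = 0.096), nor did -0.39 at 72 h (0.24). AURKB, the kinase of the passenger complex, had -0.41 at 24 h (adjusted p = 0.16) and -0.35 at 72 h (0.18). Its partner BIRC5, survivin, had -0.12 and -0.14. Other probe sets of BIRC5 gave -0.25 and -0.52 at 24 h and -0.06 and -0.19 at 72 h. By the chosen probe sets, the checkpoint kinases and their partners had smaller differences than AURKB. TTK was at -0.18 and -0.32, BUB1B at -0.22 and -0.26 and BUB1 at -0.19 and -0.18 at 24 and 72 h. Another probe set of BUB1 gave -0.50 and -0.57. ZWINT, a kinetochore scaffold, was at -0.06 at 24 h and -0.21 at 72 h (adjusted p = 0.18). BUB3 had -0.03 and 0.04, and its 4 probe sets differed in sign at both times.

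The 4 genes of anaphase onset were all negative at 24 h (median -0.25) and none passed, nor did any at 72 h (median -0.14). ESPL1, the separase that cleaves cohesin, had signals of 1638, 1460 and 1595 in vehicle, 1714, 1433 and 1342 at 8 h, 1232, 1250 and 1103 at 24 h, and 1291, 1237 and 1087 at 72 h. The 24 and 72 h arrays lay below the vehicle arrays, and the 8 h arrays overlapped them. Its log2 change was -0.38 at 24 h (SE 0.11, adjusted p = 0.067) and -0.37 at 72 h (adjusted p = 0.054). With a term for replicate number in the fit ESPL1 passed at both times. PTTG1, securin, which holds separase inactive, had -0.30 and -0.23 (adjusted p = 0.15 and 0.22). CDC20, the activator of the anaphase-promoting complex, had 0.15 at 8 h, -0.20 at 24 h and 0.05 at 72 h. UBE2C, a ubiquitin-conjugating enzyme of that complex, had -0.20 and -0.05 at 24 and 72 h.

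Genes of chromosome structure were negative in 7 of 7 cases at both 24 h (median -0.22) and 72 h (median -0.25), and none passed. By the chosen probe sets, the condensin subunit NCAPD2 had the lowest value at 24 h (-0.34, adjusted p = 0.26). The condensin ATPase SMC4 had the lowest at 72 h (-0.28, adjusted p = 0.18). SMC2, its partner, had -0.15 and -0.27, and -0.02 and -0.53 with its other probe set. NCAPG, another condensin subunit, had -0.26 and -0.21, and -0.49 and -0.31 with its other probe set. TOP2A, topoisomerase II alpha, which untangles sister chromatids, had -0.22 and -0.25, and -0.41 and -0.33 with its other probe set. NCAPH had the widest spread between vehicle arrays (487, 320 and 609), so its values of -0.12 and -0.25 (SE 0.30) show little.

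MKI67, the Ki-67 antigen used to count proliferating cells, had probe sets that disagreed. The one with the highest signal gave -0.30 at 24 h (adjusted p = 0.30) and -0.04 at 72 h, and the other 3 gave -0.30, 0.17 and -0.59 at 24 h and -0.10, 0.19 and -0.53 at 72 h. Only the probe set at 0.17 and 0.19 was positive at these times (SE 0.13 at both). The probe set at -0.59 and -0.53 had an SE of 0.11, and the unchosen probe set at -0.30 had an SE of 0.09. On U95, with 1 sample per time and no test, the MKI67 log2 ratios to vehicle were -0.36 at 24 h and -0.47 at 72 h. At 24 and 72 h the MKI67 change was therefore negative on U133A except with the probe set at 0.17 and 0.19, and its size differed between probe sets. At 72 h the values of -0.04 and -0.10 were close to 0. At 8 h the chosen probe set was at 0.06 and the others at -0.07, 0.12 and -0.32.

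The 3 cytokinesis genes were negative at both times, with medians of -0.30 at 24 h and -0.35 at 72 h, and RACGAP1 fell at 72 h. RACGAP1 is a subunit of centralspindlin, which bundles the midzone microtubules and recruits ECT2. Its signals were 1694, 1787 and 1758 in vehicle, 1609, 1723 and 1751 at 8 h, 1677, 1632 and 1668 at 24 h, and 1215, 1428 and 1348 at 72 h. The 72 h arrays lay below all 9 others. RACGAP1 was 1.31-fold lower than vehicle at 72 h (log2 change -0.39, SE 0.09, adjusted p = 0.012) and at -0.07 at 24 h (adjusted p = 0.80). Without vehicle replicate 2 the call at 72 h was lost (adjusted p = 0.054). ECT2, the exchange factor that activates RhoA at the cleavage site, had -0.35 at both times (adjusted p = 0.28 and 0.19), and PRC1, which bundles microtubules of the midzone, had -0.30 and -0.16 (0.19 and 0.48).

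DEPDC1, which was placed in no role group, fell at 72 h and did not pass at 24 h (-0.22, adjusted p = 0.59). Its signals were 541, 482 and 457 in vehicle, 502, 422 and 483 at 8 h, 423, 490 and 359 at 24 h, and 289, 304 and 407 at 72 h. The 72 h arrays lay below the vehicle arrays, and the 24 h arrays overlapped them. DEPDC1 was 1.47-fold lower at 72 h (log2 change -0.56, SE 0.15, adjusted p = 0.039), the lowest log2 change of the 55 at that time. The call was lost in 11 of 23 alternative analyses, among them without any 1 vehicle array, 8 h replicate 3, 24 h replicate 1 or 72 h replicate 1 or 2 (adjusted p up to 0.16). Its probe set, like those of CENPA, FOXM1, BUB3 and PTTG1, is of the class whose probes can match more than 1 transcript.

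**Figure D4:**
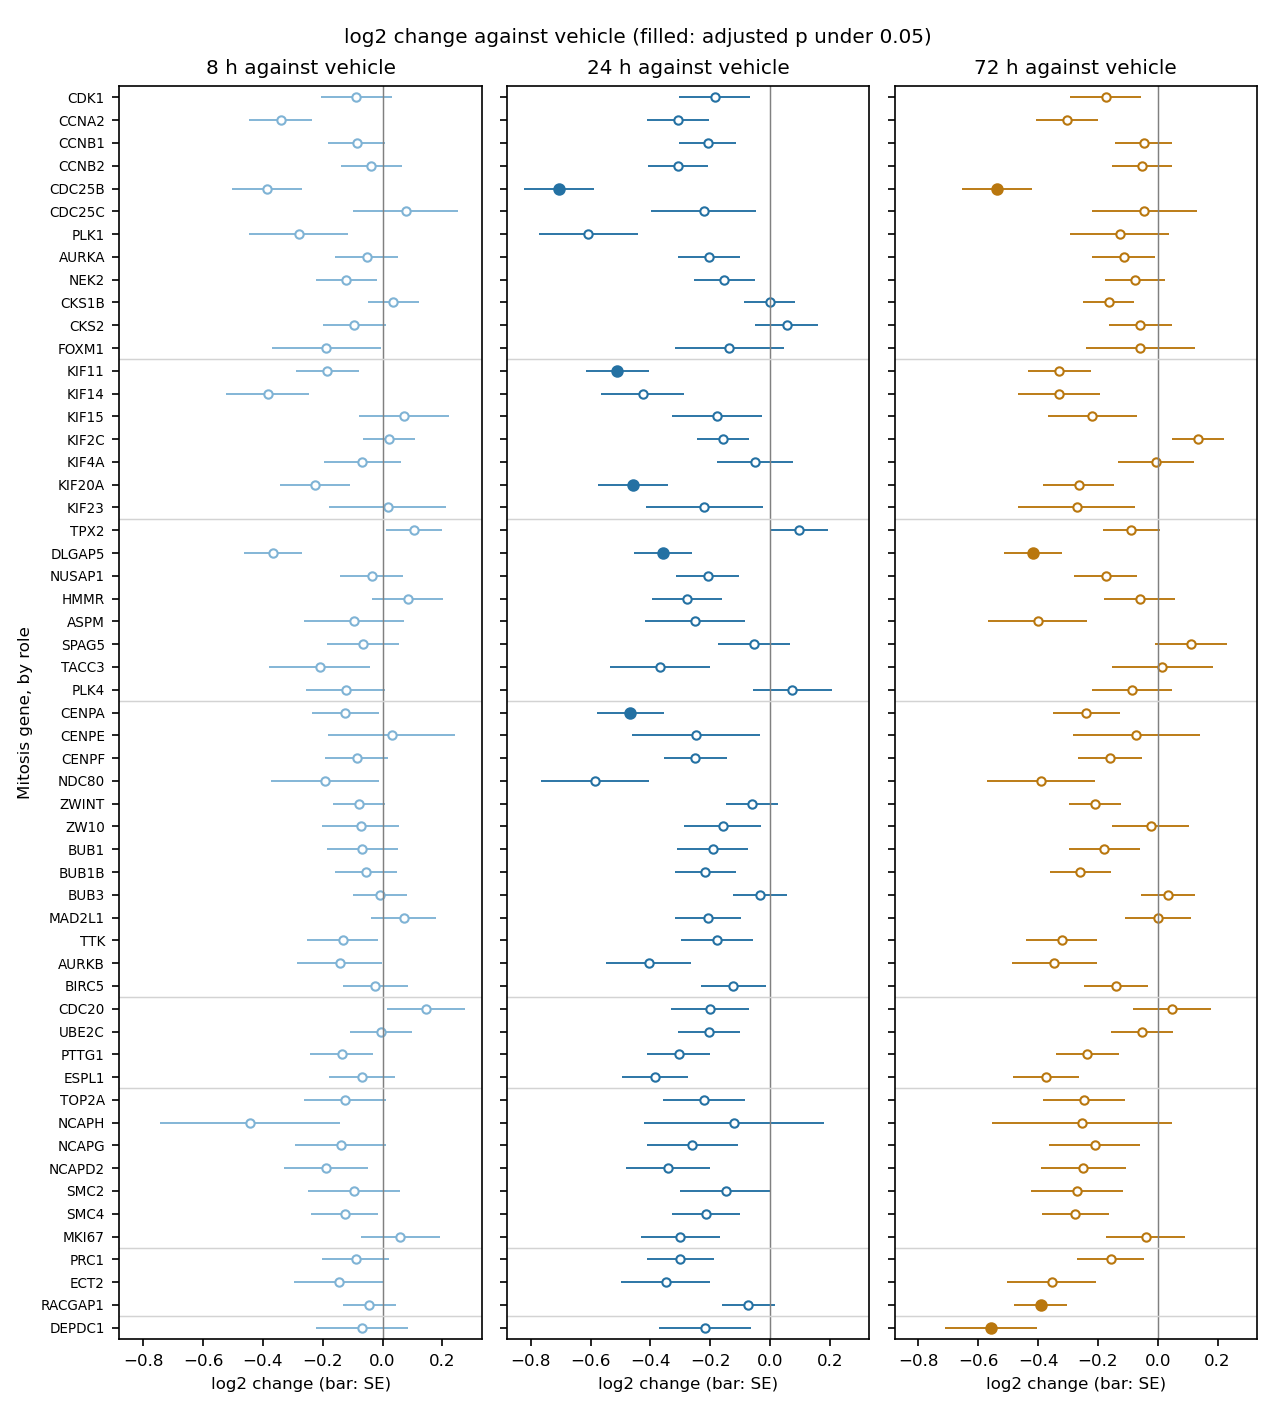
Log2 change against vehicle of the 55 mitosis genes (rows, by role) at 8, 24 and 72 h, as point and SE, 3 arrays against 3. Filled points passed limma with an adjusted p under 0.05, which holds for 0, 5 and 4 genes. At 24 h 52 of the points lie left of 0, the middle 50% of them between -0.31 and -0.16.

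Differences between the treated times were small for these genes. From 8 to 24 h, 46 of 55 were negative (52.5% of all tested genes), with a median of -0.15. With limma 0 fell and 0 rose, where 0.251% and 0.348% of all tested genes did, and at an unadjusted p under 0.05, 10 were lower and 0 higher (4.36% and 3.9% of all). KIF11 had the lowest p of them (log2 change -0.33, adjusted p = 0.31). From 24 to 72 h, 19 of 55 were negative (48.8% of all tested genes) and the median was 0.07. With limma 0 fell and 0 rose, where 0.0836% of all tested genes did so in each direction. At an unadjusted p under 0.05, CCNB2, PLK1, KIF2C and TACC3 were higher and RACGAP1 and DEPDC1 lower (5.71% and 6.03% of all), with adjusted p from 0.21 to 0.40. PLK1 had the largest of these differences, 0.48 (SE 0.17, adjusted p = 0.29). These comparisons share the 24 h arrays, so a low value there enters both.

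From 8 to 72 h RACGAP1 fell and 0 rose, where 1.13% and 1.37% of all tested genes did. The 3 signals at 72 h lay below the 3 at 8 h, a 1.27-fold lower level (log2 change -0.35, SE 0.09, adjusted p = 0.0495). This call was lost in 15 of 23 alternative analyses, among them leaving out any 1 vehicle or 8 h array, 24 h replicate 1 or 3 or 72 h replicate 1 or 3 (adjusted p up to 0.19). At an unadjusted p under 0.05, 4 genes were lower and 0 higher (7.06% and 7.04% of all).

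Other probe sets for the same genes gave a further measure. For 18 of the 55 genes more than 1 probe set lay above the limit on low signal, 44 in all, and at 24 h 40 of them were negative. The 26 probe sets that were not chosen were negative in 23 cases at 24 h (median -0.18) and in 21 at 72 h (median -0.21). They come from the same arrays and RNA, so they are no further replicates. The probe sets of AURKA, BUB3, MKI67 and PLK4 differed in sign at 24 h, and those of NEK2 as well at 72 h. AURKA, aurora A, had -0.20 with the chosen probe set at 24 h and -0.14 and 0.23 with the others. NEK2, a centrosomal kinase, had -0.08 and 0.0063 at 72 h.

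The U95 arrays, with 1 sample per time and thus no test, held 43 of the 55 genes, 41 of them above the limit. Negative log2 ratios to the U95 vehicle array were found for 30 of 41 at 8 h, 34 at 24 h and 32 at 72 h, where 52.1%, 52.6% and 55.5% of 4167 genes were negative. The medians of the 41 were -0.11, -0.11 and -0.14, beside -0.014, -0.018 and -0.044 over all. At 24 h 32 of the 38 genes that were negative on U133A were negative on U95 too. These signs depend on the scaling. With each U95 array centred on its median, the median of all genes became 0.06, 0.09 and 0.11 and the count of negative members 22, 21 and 19 of 41, where 41.1%, 38.2% and 37.2% of all genes were negative. The difference between members and all genes was then as before, since centring shifts both alike.

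CDC25B had U95 signals of 2018 in vehicle, 1608 at 8 h, 1552 at 24 h and 1789 at 72 h, log2 ratios of -0.32, -0.38 and -0.17. KIF11 had 1726, 1495, 1407 and 1334, and DLGAP5 1038, 855, 776 and 716, so both were lowest at 72 h. The other genes that passed on U133A, CENPA, KIF20A, RACGAP1 and DEPDC1, were not among those on U95 and were not checked there. PLK1, ESPL1 and NDC80, lower at 24 h on U133A without passing, had U95 ratios of -0.07, -0.09 and -0.11 at 24 h. AURKB and PTTG1, also lower there without passing, had 0.02 and 0.08. CDK1 had the lowest ratio of the 41 with the probe set of highest signal, whose signals were 1978, 1201, 982 and 1150 (ratios of -0.71, -0.9999 and -0.78), whereas its U133A change at 24 h was -0.19. With its 3 U95 probe sets averaged the ratios of CDK1 were -0.23, -0.25 and -0.21, and KIF14 (-0.55 and -0.47 at 8 and 24 h) and DLGAP5 (-0.53 at 72 h) were then the lowest of the 41. CDC20, with 1 probe set and signals of 1323, 1588, 1715 and 1621, had the highest ratio at 24 h, 0.37, and was negative on U133A at that time. With averaged probe sets BIRC5 was the highest there, at 0.38.

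**Figure D5:**
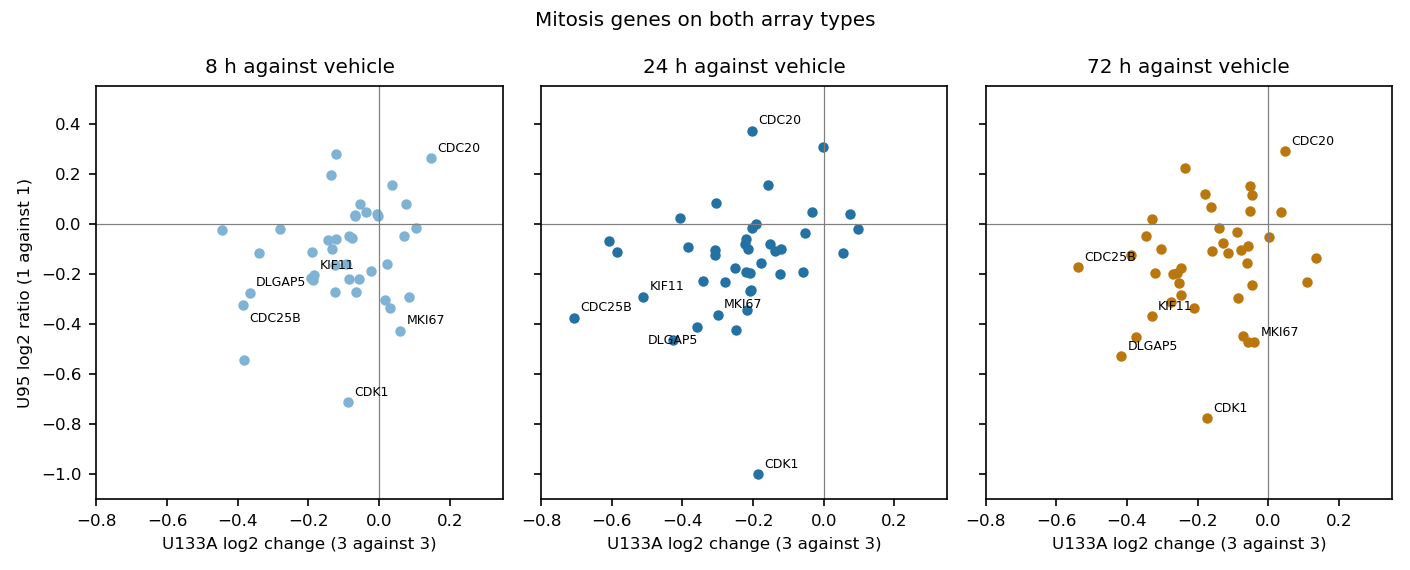
Log2 ratio on U95 (1 array against 1, vertical axis) against log2 change on U133A (3 against 3, horizontal axis) for the 41 mitosis genes above the limit on both array types, at 8, 24 and 72 h. At 24 h 32 points lie in the lower left area, where both are negative, and CDC20 lies highest on the U95 axis. CDK1, by its probe set of highest signal, lies lowest on that axis at all 3 times.

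Further lists of division genes had smaller median differences than the 55 at 24 h, and at 72 h all but the cohesin genes did. Over all tested genes 53.3% were negative at 24 h and 52.3% at 72 h. Of all tested genes 1.62% fell and 2.47% rose at 24 h, and 2.98% fell and 3.86% rose at 72 h. Of 34 tested genes among 55 further mitosis genes, 27 were negative at 24 h and 25 at 72 h, with medians of -0.14 at both times. CDCA3, which marks the mitosis inhibitor WEE1 for destruction, fell at 24 h (log2 change -0.54, adjusted p = 0.021). Signals averaged 779 ± 8.55 in vehicle and 535 ± 66.8 at 24 h (SD, n = 3). No other gene of that list passed at either time. That call was lost without any 1 vehicle array or 24 h replicate 1 or 3 (highest 0.089). CDCA8, borealin of the passenger complex, had -0.51 (adjusted p = 0.096).

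In the anaphase-promoting complex list, 4 of 10 tested genes were negative at 24 h (median 0.07), and only FBXO5 fell. FBXO5, or EMI1, inhibits the complex before mitosis and went from 359 ± 25.6 to 226 ± 14.5 at 24 h (log2 change -0.63, adjusted p = 0.027). The call was lost with no limit on low signal, with median centring and without any 1 vehicle array or 24 h replicate 1 or 3 (highest 0.12). Of 10 cohesin genes 8 were negative at 24 h (median -0.04) and 9 at 72 h (median -0.26). STAG2, a core subunit of the ring that holds sister chromatids together, fell at 72 h from 2371 ± 49.5 to 1722 ± 54.9 (log2 change -0.46, adjusted p = 0.0057). Brakes on mitotic entry and exit gave 0 calls among 14 at either time, with medians of -0.0057 at 24 h and -0.0165 at 72 h. At 24 h their values ran from -0.25 (PKMYT1) to 0.28 (WEE1, adjusted p = 0.36). At an unadjusted p under 0.05 there were 0 of 14 at 24 h and 2 lower at 72 h. These were CHEK1 (log2 change -0.46, adjusted p = 0.17) and ENSA (-0.23, adjusted p = 0.12). Over all tested genes 7.17% were lower and 7.26% higher at 24 h, and 10.3% lower and 9.81% higher at 72 h.

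Regulators of the transcription of mitosis genes were 10 of 16 negative at 24 h (median -0.09) and 12 of 16 at 72 h (median -0.07). E2F8, an atypical E2F factor that represses E2F targets, fell from 542 ± 41.8 to 297 ± 20.7 at 24 h (log2 change -0.83, adjusted p = 0.0011) and to 344 ± 37.1 at 72 h (-0.64, adjusted p = 0.0064), and these calls held in all 23 alternative analyses. E2F1 had -0.31 at 24 h (adjusted p = 0.25).

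DNA replication genes, tested for comparison, were negative for 34 of 47 at 24 h (median -0.10) and 30 of 47 at 72 h (median -0.05). MCM10, which loads polymerase alpha, fell at 24 h (-0.64, adjusted p = 0.016), a call lost without vehicle replicate 1 or 24 h replicate 3 (highest 0.095). At 72 h RFC3, a clamp loader subunit, fell (-0.37, adjusted p = 0.042) and RRM2, a subunit of ribonucleotide reductase, rose (0.45, adjusted p = 0.036). Both were lost without any 1 vehicle array, and in 14 and 11 of 23 alternative analyses in all (highest 0.15 and 0.13). The difference between the mitosis and replication lists was not tested.

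Among the inhibitors of the cell cycle, GADD45A, which can block CDK1 with cyclin B, rose from 468 ± 89.8 to 1332 ± 107 at 8 h, 1800 ± 263.8 at 24 h and 1943 ± 296 at 72 h (log2 changes 1.49, 1.91 and 2.02, adjusted p = 3.6e-05, 7.2e-07 and 2.9e-07). GADD45B rose too (0.83, 0.92 and 0.78), its call at 8 h being lost in 9 of 23 alternative analyses (highest 0.23) and that at 72 h without vehicle replicate 2 (0.057). RGCC, a cell cycle regulator that binds CDK1, fell at all 3 times (-2.20, -2.92 and -2.33, highest adjusted p = 1.4e-05). It was placed in this list beforehand, and whether it inhibits the cycle in these cells was not tested. SFN, or 14-3-3 sigma, which keeps CDK1 in the cytoplasm, fell at 72 h (-0.44, adjusted p = 0.011), and this call was lost without vehicle replicate 2 or 3 (highest 0.062) and when its probe sets were averaged (0.076).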

How the data were processed

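Messenger RNA of 16 OVCAR3 samples was measured on 12 U133A and 4 U95 arrays, and every column was matched to a sample. The authors deposited one intensity for each probe set, computed by MAS5 according to the submitters' processing notes (version not given in the sources used here), on a linear scale and with a trimmed mean of 500.2 on every array. Probe sets were assigned with the platform annotation. Of 22283 on U133A, 19071 had 1 gene, 1043 several and 2169 none, and on U95 10961 of 12626 had 1 gene. Symbols were matched to promoters from RefSeq, which gave 47 of 55 members.

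In R 4.3.3, with version 1.17.8 of data.table, log2(value + 15.833) was taken, 15.833 being the 10th percentile of U133A values (13.9 on U95). Genes under the 40th percentile of the mean were left out. limma 3.58.1 (lmFit with 1 term per group, eBayes with trend, no replicate block) was fitted to all 12 U133A arrays, with 8 residual degrees of freedom and Benjamini-Hochberg adjustment over 7178 genes. Precision is limited by the number of arrays. The code was tested on simulated data for 24 h against vehicle, with 50 genes changed at each size. Of log2 changes of -0.5 and -1, 24% and 82% passed, and of 0.5 and 1, 36% and 86%, with 8 false calls. A gene that did not pass may therefore still have changed by such an amount.

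The members, role groups, other gene lists and tests were chosen with earlier results of these data known. Named genes are members past the threshold, up to 3 per role group with the lowest p at 24 and 72 h, members whose probe sets differ in sign, and of other lists those past the threshold and up to 2 with the lowest p. Others were chosen after their values were seen. As a check of pairing, each array's deviation from its group mean was correlated with that of the array of equal number in another group. The correlation passed 0.1 in every pair for 24 against 8 h (lowest 0.11) and 72 against 24 h (lowest 0.11). It did not in every pair with vehicle, though in 34 of 36 comparisons with another group an array correlated best with its own number. The labels do not say that a number marks an experiment, so replicate numbers were not taken as pairing with vehicle. A fit with a replicate block is among the alternatives. With it CCNB2, ESPL1 and PLK1 also passed at 24 h, and ESPL1 and KIF11 at 72 h. The 23 alternatives were 12 fits that leave out 1 array and 11 other settings.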

Additional observations from a re-analysis of the deposited data

Results flagged for a closer look

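RACGAP1, the centralspindlin subunit, is listed because its level differed between 2 treated times. Its log2 signal at 72 h was -0.35 relative to 8 h (SE 0.09, limma adjusted p = 0.0495), with all 3 arrays at 72 h below the 3 at 8 h. The call was lost in 15 of 23 alternative analyses (highest adjusted p = 0.19), 10 of which left out 1 array, and the arrays whose loss kept it were 24 h replicate 2 and 72 h replicate 2. Against 24 h the difference was -0.32 and did not pass (adjusted p = 0.21).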

How the results depend on the processing

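The number of mitosis genes lower at 8 h was 1 (CDC25B) with only the 2 groups compared and 0 otherwise. At 24 h it was 5 in the fit reported, 3 with no limit on low signal, 1 with median centring, 8 with a replicate block (adding CCNB2, ESPL1 and PLK1), 3 with eBayes without trend, and 1 to 6 when 1 array was left out. Without vehicle replicate 1 only CDC25B remained of the 5. At 72 h it was 4, 6 with the block (adding ESPL1 and KIF11), and 1 to 6 when 1 array was left out, with 1 without vehicle replicate 2. Same-numbered arrays correlated over 0.1 in 1, 1 and 2 of 3 pairs of vehicle with 8, 24 and 72 h, yet in 34 of 36 comparisons of an array with another group it correlated best with its own number, a hint from the data and not from the design that the numbers pair the arrays. The block changed no call between 8 and 24 h or 24 and 72 h. From 8 to 72 h it was 0 with the limit at the 20th percentile, quantile normalization, median centring, eBayes without trend or only the 2 groups compared, and 0 to 1 when 1 array was left out. The genes negative on U95 with median centring numbered 21 at 24 h and 19 at 72 h. The median log2 change at 8 h ranged from -0.12 to -0.03 when 1 array was left out. In no setting did a call change sign. Over all genes, the number lower at 24 h ran from 65 to 188 and at 72 h from 119 to 293, with lower calls 39.6% of all calls at 24 h and 30.9% with median centring. Among the 55, the change nearest to 0 that passed was -0.36 at 24 h and -0.39 at 72 h. Signals were scaled to 1 mean, so a shift of all transcripts alike is not measured.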
